A study of Mus musculus with 8 samples.

Results

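The comparison described here sets mouse pre-B cells carrying TAF15-ZNF384 against the same kind of cells carrying an empty vector. It takes 4 of the 8 sequenced samples, 2 libraries with the fusion and 2 with the vector, and all 32499 genes of the count table, of which 12970 had enough reads to be tested. The TAF15-ZNF384 group consisted of cells given a lentivirus for an HA-tagged fusion of TAF15 to ZNF384. The empty vector group is labelled only as the vector. Both groups were Arf-/- pre-B cells derived from C57BL/6 bone marrow, so the loss of Arf, a tumour suppressor encoded at Cdkn2a, was common to the fusion cells and their controls. GFP-positive cells were sorted, and stranded libraries were made from their total RNA. The series design calls the replicates biological, and the labels tie none of them to an animal or clone. The remaining 4 samples carried TCF3-ZNF384 or full-length ZNF384, both HA-tagged, on the same background. They entered the same fit, so they share in its filter, scaling and estimate of the spread. Otherwise they are used below to place single genes and gene groups.

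ZNF384 is a zinc finger transcription factor that binds DNA rich in A or T. In B cell precursor leukaemia its gene is found joined to several partners, among them TAF15, an RNA-binding protein of the FET family, and TCF3, an E protein gene of early lymphocytes. The fusions keep the zinc fingers of ZNF384 behind the partner's amino-terminal part. A pre-B cell has rearranged its immunoglobulin heavy chain and depends on interleukin-7 and on the pre-B cell receptor, whose signal ends with renewed recombinase expression and rearrangement of a light chain.

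With TAF15-ZNF384, 1430 of the 12970 tested genes (11.0%) passed an adjusted p of 0.05 in edgeR's quasi-likelihood test. There were 650 higher genes (5.01%) and 780 lower genes (6.01%). A change of at least 2-fold was seen for 190 higher genes (1.46%) and 143 lower genes (1.10%). These counts are from the fit of all 8 libraries. A fit of only the 4 libraries compared called 2746 genes. The direction balance depended on the scaling. Dividing by total counts moved the median log2 fold change of all genes up by 0.14 and gave 1341 higher and 424 lower genes, whereas removing a trend with exon length gave 472 higher and 878 lower genes. In 7690 genes (59.3%) the levels of the groups did not overlap, so separate groups alone are common here. Separate groups were also required of the genes named for the largest changes or the smallest adjusted p. Of the 1430 calls, 297 held when each of the 4 libraries was left out in turn, 158 of them higher and 139 lower. Leaving out a library leaves 1 in its group and lowers the power, so a call can end while its value hardly moves. A gene absent from such a fit was not counted as losing its call. Log2 fold changes below are given for TAF15-ZNF384 over the empty vector unless another comparison is named. The value after ± is an approximate standard error, the size of the log2 fold change divided by the square root of edgeR's F statistic. Where a group had few reads it can understate the uncertainty. Levels are in CPM, the counts scaled to a common library total, per library.

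**Figure D1:**
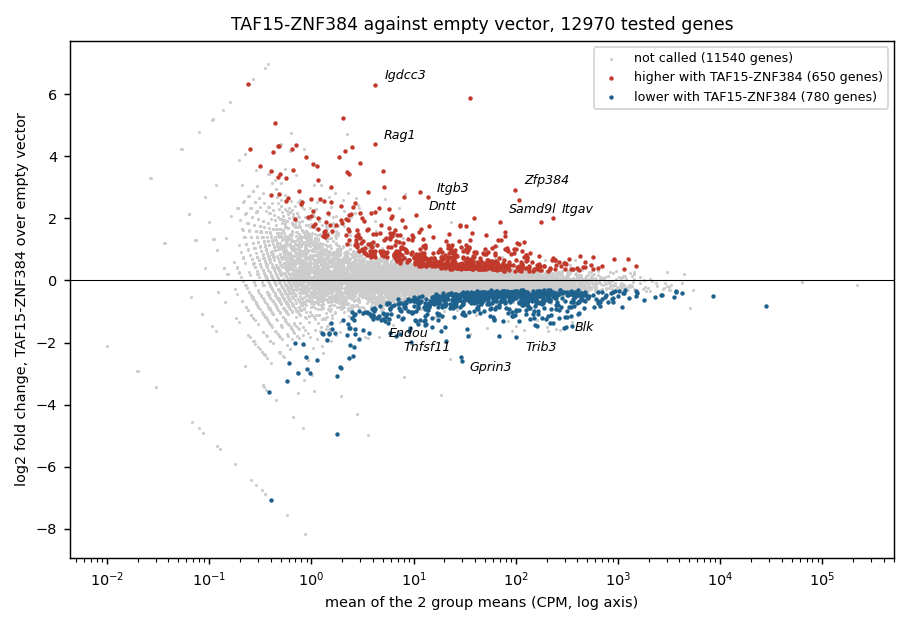
Log2 fold change of TAF15-ZNF384 over empty vector (vertical axis) against the mean level of both groups in CPM (horizontal log axis), 1 point per tested gene. The 650 higher genes are in red and the 780 lower genes in blue. Igdcc3 lies highest of the labelled genes and Gprin3 lowest.

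Library totals were 9381954 and 9963494 counts with TAF15-ZNF384 and 28469291 and 29072409 with the empty vector, so the fusion libraries were the shallower ones. Pearson's r between replicates over log2 CPM was 0.977 in the fusion group and 0.989 in the vector group, computed across genes, which are not independent replicates. The chi-square of the replicates' counts per degree of freedom was 3.87 in the fusion group and 38.98 in the vector group. This measure grows with depth, and the part of depth in the gap was not tested. A group of 5 abundant non-coding genes took 28.1 and 29.6% of counts with the fusion and 27.2 and 33.2% with the vector. Column headers of the fusion and full-length libraries carry a replicate suffix that those of the vector libraries lack, and a difference in preparation, if there was one, cannot be told apart from the group.

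Zfp384, the mouse gene orthologous to ZNF384, served as a check of the labels. Zfp384 was at 185 and 162 CPM with TAF15-ZNF384, against 24.0 and 21.6 CPM with the empty vector (2.93 ± 0.26, adjusted p = 0.000435). The groups were far apart in each library. How reads of the construct were assigned to the mouse gene is not given in the sources used here, so the value checks the labels and measures neither the transcript of the construct alone nor its protein. The mouse Taf15 gene was at 27.5 and 22.2 CPM with the fusion, against 27.4 and 26.1 CPM with the vector, and did not pass the test (−0.11 ± 0.12, adjusted p = 0.619).

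Genes of V(D)J recombination were among the largest risers. Rag1 and Rag2 encode the recombinase that cuts antigen receptor loci and lie side by side on mm9 chromosome 2 (101478439 to 101489658 and 101464875 to 101472685). Rag1 was at 6.63 and 9.31 CPM with TAF15-ZNF384, against 0.547 and 0.202 CPM with the empty vector (4.38 ± 0.33, adjusted p = 3.25e-06). Both fusion libraries lay far above both vector libraries. The size of the change rested in part on empty vector replicate 1, since without it the log2 value was 5.26. Rag2 was low throughout, at 1.96 and 1.38 CPM (18 and 13 counts) with the fusion and 0.156 and 0.0403 CPM (4 and 1 counts) with the vector (3.99 ± 0.73, adjusted p = 0.00306). Its call ended without TAF15-ZNF384 replicate 1, at 3.71, and the value was 5.16 and 3.36 without empty vector replicate 1 or 2. Dntt, which encodes terminal transferase, the polymerase that adds untemplated bases at the joints, was at 23.3 and 16.9 CPM with TAF15-ZNF384, against 2.70 and 2.90 CPM with the empty vector (2.84 ± 0.36, adjusted p = 0.00267). These 3 genes were the ones called among 12 tested members of a recombination list, all higher, where 5.01% of all tested genes were higher. The list's median log2 fold change was −0.05, next to 0.01 for all tested genes. The repair genes that the recombinase shares with other cells did not pass the test: Prkdc, the catalytic subunit of DNA-PK, was at 144 and 147 CPM with the fusion and 154 and 165 CPM with the vector, and Lig4, the ligase of end joining, at 55.5 and 56.2 CPM against 54.1 and 55.3 CPM.

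The highest log2 fold change among called genes above 5 CPM with the fusion was that of Igdcc3, a membrane protein with immunoglobulin domains (mm9 chromosome 9, 64988961 to 65033664). Igdcc3 was at 8.48 and 8.25 CPM with TAF15-ZNF384, against 0.156 and 0.0403 CPM with the empty vector (6.31 ± 0.36, adjusted p = 2.07e-07). Vector reads were so few that leaving out empty vector replicate 1 or 2 gave 7.48 or 5.68, both further from 6.31 than the ± value. Atp6v0a1, a subunit of the proton pump that acidifies vesicles, was at 7.18 and 4.02 CPM with the fusion, against 0.391 and 0.403 CPM with the vector (3.79 ± 0.36, adjusted p = 1.84e-05). Ybx2, a Y-box RNA-binding protein known from germ cells, was at 10.4 and 8.25 CPM with the fusion, against 0.938 and 0.685 CPM with the vector (3.51 ± 0.24, adjusted p = 1.46e-06). In all 3 genes the vector group was close to the lower end of what these libraries detect. Dok2, an adaptor that restrains receptor signalling in blood cells (mm9 chromosome 14, 71165843 to 71178302), was at 13.9 and 14.2 CPM with TAF15-ZNF384, against 2.03 and 2.30 CPM with the empty vector (2.69 ± 0.17, adjusted p = 6.08e-07). Arhgef28, an exchange factor for RhoA, was at 6.31 and 6.24 CPM with the fusion, against 0.899 and 0.847 CPM with the vector (2.84 ± 0.25, adjusted p = 9.66e-06). Scube3, a secreted and membrane-bound protein with EGF-like repeats, reached higher levels, at 190 and 183 CPM with the fusion, against 34.5 and 27.3 CPM with the vector (2.59 ± 0.25, adjusted p = 0.00061). The orphan adhesion receptor gene Adgrf1 rose as well (2.31 ± 0.27, adjusted p = 0.000101). Tmem30c also passed the test (3.01 ± 0.59, adjusted p = 0.0153), but its call ended without TAF15-ZNF384 replicate 1 (2.69), empty vector replicate 1 (2.65) or empty vector replicate 2 (3.47).

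Among more abundant genes, Samd9l, which encodes an antiviral and growth-restraining protein, was at 114 and 106 CPM with TAF15-ZNF384, against 28.2 and 31.7 CPM with the empty vector (1.88 ± 0.11, adjusted p = 3.56e-07). Sytl2, a Rab27 effector in vesicle transport, was at 123 and 113 CPM with the fusion, against 38.9 and 41.2 CPM with the vector (1.56 ± 0.10, adjusted p = 6.9e-07). Neither pair of groups overlapped, which the rule that named these genes required. Samd9l is often studied as an interferon target, yet none of 25 tested interferon response genes was called in either direction by edgeR (1 higher by DESeq2's Wald test), and the median log2 fold change of that list was 0.16. At an unadjusted p under 0.05 edgeR gave 3 higher and 0 lower of the 25, and under total-count scaling it called 3 higher.

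**Figure D2:**
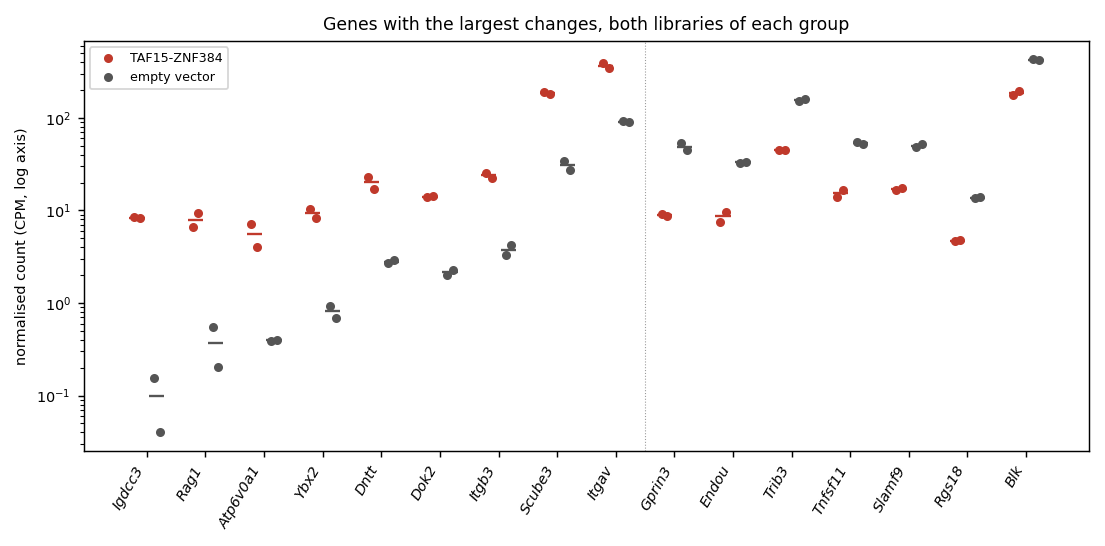
Normalised counts (CPM, log axis) of 16 genes with large changes, with both libraries of each group as points and the group mean as a bar, TAF15-ZNF384 left of empty vector for each gene. The 9 genes left of the dotted line were higher with the fusion and the 7 right of it lower. The groups overlap in none of them, which the rule that named these genes required.

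Integrin and matrix genes formed a second group of risers. Itgav encodes the αv chain, which pairs with several β chains, and Itgb3 encodes β3, its partner in the vitronectin receptor. Itgav was at 389 and 347 CPM with TAF15-ZNF384, against 93.3 and 89.5 CPM with the empty vector (2.01 ± 0.10, adjusted p = 1.01e-07). Itgb3 was at 25.3 and 22.6 CPM with the fusion, against 3.28 and 4.23 CPM with the vector (2.67 ± 0.14, adjusted p = 1.14e-07). Both chains of that receptor were thus higher in each fusion library than in either vector library. Itga9, the α9 chain, was at 15.7 and 13.01 CPM with the fusion, against 5.75 and 5.20 CPM with the vector (1.39 ± 0.22, adjusted p = 0.00131). Mmp13, a collagenase, was at 281 and 272 CPM with the fusion, against 71.0 and 80.2 CPM with the vector (1.87 ± 0.22, adjusted p = 0.00125). Lama5, a laminin chain of basement membranes, was at 9.35 and 8.25 CPM with the fusion, against 3.05 and 2.38 CPM with the vector (1.69 ± 0.24, adjusted p = 0.000446). Among all tested genes 5.01% rose and 6.01% fell. Of 22 tested genes on a matrix and adhesion list, 7 rose and 0 fell, at a median of 0.42. DESeq2's Wald test gave 8 and 0, and at an unadjusted p under 0.05 edgeR gave 10 higher and 1 lower. A further 13 members had too few reads to be tested, and a member low with the vector could enter the test through the groups in which it was high. The number of risers was 4 without TAF15-ZNF384 replicate 1 or without empty vector replicate 2. Lamb2 and Timp2 were among the members whose calls ended, at 1.03 and 1.83 without TAF15-ZNF384 replicate 1. Leaving out empty vector replicate 1 or 2 put Timp2 at 2.55 or 1.40. Gja1, a gap junction protein of the connexin family, which is on none of the lists and was picked after its value was seen, was at 52.7 and 49.2 CPM with the fusion, against 16.4 and 13.5 CPM with the vector (1.77 ± 0.14, adjusted p = 3.25e-06).

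Called transcription factor genes on the lists included members of the Notch and E protein pathways. Hes1, a repressor best known as a target of Notch, was at 105 and 115 CPM with TAF15-ZNF384, against 52.4 and 61.7 CPM with the empty vector (0.95 ± 0.13, adjusted p = 0.000287). Tcf4, which encodes the E protein E2-2, was at 55.1 and 55.6 CPM with the fusion, against 31.6 and 35.2 CPM with the vector (0.73 ± 0.13, adjusted p = 0.00295). Id2, an inhibitor that binds E proteins and keeps them off DNA, was at 77.0 and 81.9 CPM with the fusion, against 37.3 and 53.4 CPM with the vector (0.81 ± 0.14, adjusted p = 0.00232). In each of these 3 genes the fusion libraries lay above the vector libraries. The call of Id2 ended when the fit held only the 4 libraries compared, with the value still 0.81. Among all tested genes 5.01% rose and 6.01% fell. Of 13 tested members of the E protein and Id network, 5 rose and 0 fell, at a median of 0.38. The count was 3 without TAF15-ZNF384 replicate 2 or empty vector replicate 2, where Lyl1, a helix-loop-helix factor of early blood cells, was at 0.58 and 0.47. Tcf3 itself was at 96.1 and 93.9 CPM with the fusion, against 70.3 and 73.3 CPM with the vector (0.40 ± 0.11, adjusted p = 0.0267). Its call ended in each of the 4 fits with 1 library left out (0.37 to 0.43). The B lineage regulators Bach2 (0.43 ± 0.10) and Sox4 (0.36 ± 0.10) passed with adjusted p = 0.0163 and 0.0321 and lost their calls in the same 4 fits. Foxo1, an activator of the Rag genes in mouse B cell precursors, fell to 143 and 109 CPM with the fusion, against 192 and 189 CPM with the vector (−0.60 ± 0.12, adjusted p = 0.00436), a call that ended without TAF15-ZNF384 replicate 2, at −0.43. Pax5, which holds B lineage identity, was at 1142 and 1053 CPM with the fusion and 1073 and 1026 CPM with the vector, and did not pass the test (0.06 ± 0.09, adjusted p = 0.701). In all, 4 of 22 tested B lineage factors rose and 1 fell, and 1 rose in each fit with 1 of the 4 libraries left out.

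Components of the pre-B cell receptor and its signalling included clear falls of kinase genes. Blk, a Src family kinase of B cells (mm9 chromosome 14, 63991674 to 64036024), was at 178 and 198 CPM with TAF15-ZNF384, against 429 and 421 CPM with the empty vector (−1.18 ± 0.10, adjusted p = 1.2e-05). Btk, the kinase whose loss blocks B cell development in human X-linked agammaglobulinaemia, was at 24.7 and 21.4 CPM with the fusion, against 50.01 and 43.4 CPM with the vector (−1.02 ± 0.12, adjusted p = 0.000138). Both kinases were lower in each fusion library than in either vector library. The surrogate light chain did not move as a unit. Vpreb2 was at 180 and 213 CPM with the fusion, against 282 and 266 CPM with the vector (−0.48 ± 0.13, adjusted p = 0.0318), Vpreb1 at 451 and 497 CPM against 485 and 469 CPM (adjusted p = 0.96), and Igll1 at 733 and 828 CPM against 720 and 726 CPM (adjusted p = 0.484). Vpreb1 and Vpreb2 are close copies, between which the counting could split reads. Of 24 tested members, 2 rose (Vpreb3 and Cd72) and 5 fell (Blk, Btk, Fyn, Prkcb and Vpreb2), and the median was 0.08, where 5.01% of all tested genes rose and 6.01% fell. No member was called higher in any fit with 1 of the 4 libraries left out. The calls of Fyn, Prkcb and Vpreb2 ended in every fit with 1 of the 4 libraries left out. Without TAF15-ZNF384 replicate 2, for example, Vpreb3 was at 0.27, Fyn at −0.50 and Prkcb at −0.27.

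Cytokine and survival genes included both large risers and clear falls. Clcf1, a cytokine of the interleukin-6 family, was at 4.68 and 3.91 CPM with TAF15-ZNF384, against 0.508 and 0.282 CPM with the empty vector (3.42 ± 0.44, adjusted p = 0.000218). Il2ra, the high-affinity chain of the interleukin-2 receptor, was at 36.5 and 29.8 CPM with the fusion, against 14.5 and 8.79 CPM with the vector (1.51 ± 0.25, adjusted p = 0.00766), and its call ended without TAF15-ZNF384 replicate 1, at 1.35. Cd38, an ectoenzyme of early B cells named after its value was seen, was at 8.48 and 11.2 CPM with the fusion, against 3.09 and 3.31 CPM with the vector (1.62 ± 0.24, adjusted p = 0.00061). The vector libraries stayed below the fusion libraries in all 3 genes. Bcl2, which blocks apoptosis, fell to 90.8 and 99.1 CPM with the fusion, against 175 and 153 CPM with the vector (−0.79 ± 0.11, adjusted p = 0.000364). Pim2, a survival kinase induced through STAT5, fell to 83.1 and 79.2 CPM with the fusion, against 184 and 158 CPM with the vector (−1.07 ± 0.17, adjusted p = 0.00213). Ccr7, the receptor that guides lymphocytes to lymph nodes, fell to 117 and 103 CPM with the fusion, against 215 and 219 CPM with the vector (−0.99 ± 0.10, adjusted p = 3.89e-05). Each of these 3 genes kept its call under all alternatives run. The NF-κB subunit gene Rel was lower too, at 46.6 and 44.7 CPM with the fusion and 82.5 and 83.6 CPM with the vector (−0.86 ± 0.10, adjusted p = 8.23e-05). Of all tested genes 5.01% rose and 6.01% fell. On the interleukin-7 and JAK-STAT list, 2 of 23 tested genes rose and 3 fell, at a median of −0.04. The risers were Il7r, the receptor chain (0.51 ± 0.14, adjusted p = 0.0307), and Jak3, the kinase bound to the common γ chain (0.54 ± 0.13, adjusted p = 0.0162). Neither call held when any 1 of the 4 libraries was left out (0.46 to 0.54 and 0.47 to 0.59). Cd69, an early activation antigen, fell (−0.74 ± 0.13, adjusted p = 0.00267), and that call ended without TAF15-ZNF384 replicate 1, at −0.71.

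Among genes that fell, Gprin3, a membrane protein named for its binding of G proteins, had the lowest log2 fold change of the called genes with a name and above 5 CPM with the vector (mm9 chromosome 6, 59302455 to 59376284). Gprin3 was at 9.13 and 8.78 CPM with TAF15-ZNF384, against 53.3 and 44.8 CPM with the empty vector (−2.45 ± 0.13, adjusted p = 1.14e-07). Endou, an RNA-cutting endonuclease, was at 7.50 and 9.73 CPM with the fusion, against 32.7 and 33.5 CPM with the vector (−1.94 ± 0.18, adjusted p = 1.4e-05). Tnfsf11, the cytokine RANKL, was at 14.1 and 16.6 CPM with the fusion, against 54.6 and 52.7 CPM with the vector (−1.80 ± 0.19, adjusted p = 0.000165). None of these genes had overlapping groups, which the rule that named them required. Slamf9, a receptor of the SLAM family, was at 16.5 and 17.3 CPM with the fusion, against 48.7 and 52.0 CPM with the vector (−1.57 ± 0.17, adjusted p = 8.24e-05). Rgs18, which shortens signals of G protein-coupled receptors, was at 4.68 and 4.76 CPM with the fusion, against 13.5 and 14.1 CPM with the vector (−1.55 ± 0.16, adjusted p = 3.6e-05). Kctd11 (−1.78 ± 0.23) and Acap1 (−1.26 ± 0.11), which adjoin each other on mm9 chromosome 11 (69691767 to 69694487 and 69695069 to 69709041), fell with adjusted p = 0.000255 and 7.28e-06. Acap1 encodes a protein of endosome recycling. Stk17b, a kinase of the death-associated family, was at 253 and 267 CPM with TAF15-ZNF384, against 535 and 557 CPM with the empty vector (−1.07 ± 0.09, adjusted p = 1.02e-05). Ablim1, an actin-binding protein, and the calpain gene Capn5 fell too (−1.20 ± 0.11 and −1.10 ± 0.10, adjusted p = 1.3e-05 and 1.83e-05). Cd2, an adhesion receptor of lymphocytes, fell (−1.73 ± 0.33, adjusted p = 0.00708), but was at −1.34 and without a call when TAF15-ZNF384 replicate 2 was left out. A gene annotated as a ribosomal protein pseudogene, Rpsa-ps10, was also in this group (−1.79 ± 0.21, adjusted p = 0.000665) and may hold reads of Rpsa.

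Genes of the integrated stress response, the program that ATF4 runs when amino acids are short, fell together. Of 25 tested members of a list that also holds the serine synthesis genes, 16 fell (against 6.01% of all tested genes) and 0 rose, at a median of −0.75. With 1 of the 4 libraries left out, 12 or 13 fell. At an unadjusted p under 0.05 edgeR gave 18 lower and 0 higher, and DESeq2's Wald test called 15 lower and 0 higher. Trib3, a pseudokinase induced by ATF4 and CHOP, was at 44.6 and 44.7 CPM with TAF15-ZNF384, against 154 and 162 CPM with the empty vector (−1.82 ± 0.13, adjusted p = 2.46e-06). Asns, asparagine synthetase, was at 107 and 106 CPM with the fusion, against 233 and 220 CPM with the vector (−1.08 ± 0.10, adjusted p = 2.25e-05). Gpt2, the mitochondrial alanine aminotransferase, was at 37.6 and 35.9 CPM with the fusion, against 90.9 and 81.5 CPM with the vector (−1.23 ± 0.12, adjusted p = 3.17e-05). The groups were cleanly apart in all 3. Cth, which makes cysteine from cystathionine, was at 9.57 and 11.7 CPM with the fusion, against 29.1 and 31.3 CPM with the vector (−1.50 ± 0.17, adjusted p = 8.23e-05). Phgdh, the first enzyme of serine synthesis, was at 227 and 262 CPM with the fusion, against 453 and 437 CPM with the vector (−0.86 ± 0.11, adjusted p = 0.000179). Mthfd2, of the mitochondrial folate cycle, was at 159 and 148 CPM with the fusion, against 294 and 288 CPM with the vector (−0.92 ± 0.09, adjusted p = 3.4e-05). Chac1, which breaks down glutathione, and Nupr1, a stress-induced nuclear protein, were low throughout and fell as well (−1.29 ± 0.23 and −2.43 ± 0.41, adjusted p = 0.00255 and 0.00185). The regulators themselves were not called: Atf4 was at 48.3 and 37.4 CPM with the fusion and 36.8 and 46.5 CPM with the vector (adjusted p = 0.909), with overlapping groups, and Ddit3, which encodes CHOP, at 57.6 and 59.98 CPM against 66.5 and 79.9 CPM (adjusted p = 0.178).

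Genes that bring in and charge amino acids followed the same direction. The share of all tested genes that fell was 6.01%, and 5.01% rose. Of 12 tested amino acid transporters 7 fell and 0 rose, at a median of −0.62, and of 20 cytosolic aminoacyl-tRNA synthetases 12 fell and 0 rose, at a median of −0.48. Without TAF15-ZNF384 replicate 1 the numbers that fell were 4 and 8, and without TAF15-ZNF384 replicate 2 they were 6 and 8. At an unadjusted p under 0.05 edgeR gave 7 and 13 lower and 0 higher on both lists, and DESeq2's Wald test called 7 and 13 lower and 0 higher. Slc7a5 and Slc3a2 encode both chains of the LAT1 exchanger of large neutral amino acids. Slc7a5 was at 485 and 467 CPM with TAF15-ZNF384, against 806 and 777 CPM with the empty vector (−0.73 ± 0.09, adjusted p = 0.000215). Slc3a2 was at 21.3 and 22.95 CPM with the fusion, against 36.2 and 39.8 CPM with the vector (−0.78 ± 0.11, adjusted p = 0.00061). Slc1a4, a carrier of small neutral amino acids, was at 98.4 and 89.7 CPM with the fusion, against 201 and 199 CPM with the vector (−1.09 ± 0.11, adjusted p = 4.35e-05). Each transporter was lower in both fusion libraries. Slc7a1, an arginine and lysine carrier, was at 199 and 146 CPM with the fusion, against 361 and 294 CPM with the vector (−0.93 ± 0.14, adjusted p = 0.000966), and lost its call when the fit held only these 4 libraries, at −0.92. Gars, which charges glycine tRNA, was at 486 and 471 CPM with the fusion, against 882 and 826 CPM with the vector (−0.84 ± 0.09, adjusted p = 8.23e-05). Yars, Iars and Tars, for tyrosine, isoleucine and threonine, fell as well (−0.70 ± 0.09, −0.68 ± 0.09 and −0.68 ± 0.09, adjusted p = 0.000349, 0.000357 and 0.000392).

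The falls against the vector were not matched against full-length ZNF384 for all of these genes. In that comparison, which shares the TAF15-ZNF384 libraries and in which 33.3% of tested genes were called, 7 stress response genes were higher with TAF15-ZNF384 and 7 lower, at a median of −0.06. Transporters gave 0 higher and 3 lower, and synthetases 1 higher and 10 lower (median −0.26). Trib3 was at 35.8 and 48.5 CPM with full-length ZNF384, and TAF15-ZNF384 did not differ from it by the test (0.09 ± 0.13, adjusted p = 0.633). For Asns, TAF15-ZNF384 was lower than full-length ZNF384, which was at 143 and 167 CPM (−0.53 ± 0.10, adjusted p = 0.00164). With TCF3-ZNF384 Trib3 was at 27.1 and 30.7 CPM, so the vector libraries, at 154 and 162 CPM, had the highest levels of Trib3 among the 8 libraries.

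ATF4 and C/EBP proteins bind together at an element with the letters TGATGNAA. Promoter windows from RefSeq (GRCm38.p6), 250 bases before to 50 after each gene start, were searched for it on both strands. It was found in 11 of 32 windows (34.4%) of the stress, transporter and synthetase genes that fell, in 4 of 23 windows (17.4%) of those not called, in 4.87% of windows of all lower genes and in 2.24% of the 11942 windows of tested genes. Over all 32851 windows in the table the share was 3.97%. No test was made. The sites of 7 of these genes are shown as examples of the minority of windows that hold it, each read on the strand that spells the element, with its 8 bases in capitals.

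Trib3 (chr2:152344028-152344057, plus strand): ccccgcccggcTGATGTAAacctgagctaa
Asns (chr6:7693214-7693243, minus strand): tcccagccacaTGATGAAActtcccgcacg
Slc1a4 (chr11:20332699-20332728, plus strand): caggctggagaTGATGCAAcgcaggaggca
Gars (chr6:55037960-55037989, minus strand): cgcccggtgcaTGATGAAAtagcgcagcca
Tars (chr15:11399655-11399684, plus strand): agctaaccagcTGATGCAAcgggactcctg
Nupr1 (chr7:126625562-126625591, plus strand): caagccctgtcTGATGCAAtctggcccttt
Chac1 (chr2:119351038-119351067, minus strand): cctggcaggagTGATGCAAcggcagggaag

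Counted along the gene, with 1 as the first transcribed base and −1 the base before it, the element began at −23 in Asns, −30 in Gars, −15 in Tars, −4 in Slc1a4, −110 in Nupr1, −193 in Chac1 and 15 in Trib3. Atf3, which was not called (62.0 and 59.7 CPM with TAF15-ZNF384, 62.4 and 88.6 CPM with the empty vector, adjusted p = 0.506), held a match at −110. A match of letters shows neither binding nor a cause.

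Cytosolic ribosomal protein genes were lower as a group, and by amounts that differed from gene to gene. Of 79 tested members 49 fell, against 6.01% of all tested genes, and 0 rose. The list's median was −0.78, with a range from −1.64 to 0.32. The median was −0.78 without TAF15-ZNF384 replicate 1 and −0.83 without its replicate 2. It was −0.58 without empty vector replicate 1 and −0.94 without its replicate 2. Fewer members were called in each of these fits, which leave 1 library in a group. Most of the calls ended without TAF15-ZNF384 replicate 1 or 2 or without empty vector replicate 1, and the fewest remained without TAF15-ZNF384 replicate 1. DESeq2's Wald test called 60 lower and 0 higher, edgeR at an unadjusted p under 0.05 gave 65 lower and 1 higher, and total-count scaling gave 36 lower and 1 higher. Ribosomal protein genes took 1.72 and 1.77% of counts with TAF15-ZNF384, and 2.92 and 2.30% with the empty vector. Rpsa was at 304 and 352 CPM with the fusion, against 677 and 539 CPM with the vector (−0.89 ± 0.13, adjusted p = 0.000692). Rplp0 was at 278 and 286 CPM with the fusion, against 470 and 413 CPM with the vector (−0.65 ± 0.10, adjusted p = 0.00131). Both genes were lower in each fusion library than in either vector library, and replicate 1 was the higher vector library in both. Rps2 and Rps6 had larger changes (−1.54 ± 0.33 and −1.47 ± 0.33) and weaker support (adjusted p = 0.0393 and 0.0435), and their calls ended when any of the 4 libraries was left out (−1.29 to −1.76 and −1.24 to −1.68). Many of these genes have processed pseudogenes, so reads could be split in counting and the values are uncertain. Short transcripts as a whole were lower: the median log2 fold change was −0.17 over 331 genes of at most 500 exonic bases and 0.09 over 1135 genes above 8000, and the ribosomal protein genes had a median exonic length of 1498 bases. With the length trend removed 48 were still lower, at a median of −0.78. The part of RNA length or library quality in the result was otherwise not tested.

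Translation factors whose mRNAs, like those of the ribosomal proteins, begin with a run of pyrimidines were lower in 7 of 20 tested members, with 0 higher, at a median of −0.27, and in 2 or 3 members with any 1 of the 4 libraries left out. Eef1a1, which delivers charged tRNAs to the ribosome, was at 753 and 816 CPM with TAF15-ZNF384, against 1558 and 1265 CPM with the empty vector (−0.85 ± 0.14, adjusted p = 0.00154). Eef1g, a subunit of its exchange factor, was at 551 and 564 CPM with the fusion, against 906 and 796 CPM with the vector (−0.61 ± 0.10, adjusted p = 0.00169). Among all tested genes 6.01% were lower and 5.01% higher. Mitochondrial ribosomal protein genes moved little beside the translation factors, with 2 of 73 lower, 0 higher and a median of −0.16. Total-count scaling gave 0 lower and 2 higher. With any 1 of the 4 libraries left out, 0 members were called in either direction. Nuclear genes of oxidative phosphorylation gave 1 higher and 2 lower of 75, at a median of −0.08. The higher call ended with any of the 4 libraries left out, and the lower calls numbered 0 without TAF15-ZNF384 replicate 1 or empty vector replicate 1 and 1 without TAF15-ZNF384 replicate 2. Under total-count scaling the median of the last list turned positive, at 0.06. In the RefSeq windows, a run of at least 6 C or T that reached within 5 bases of the gene start was present in 45.6% of windows of ribosomal protein genes, 18.6% of windows of all lower genes and 20.8% of windows of tested genes. The start regions of 4 ribosomal protein genes that fell show this run in capitals.

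Rps15a (chr7:118116130-118116159, minus strand): tctttctgccaTCTTCCCTCgccggtgagt
Rps10 (chr17:27635227-27635256, minus strand): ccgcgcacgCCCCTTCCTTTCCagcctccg
Rpl18 (chr7:45718062-45718091, plus strand): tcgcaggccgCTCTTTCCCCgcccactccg
Rpl14 (chr9:120571501-120571530, plus strand): agggcgggCCCTCTCTCTTCTCgctgagcg

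Rps15a was at 610 and 620 CPM with TAF15-ZNF384, against 892 and 897 CPM with the empty vector (−0.54 ± 0.09, adjusted p = 0.00146). Rps10 was at 97.4 and 107 CPM with the fusion, against 172 and 148 CPM with the vector (−0.65 ± 0.12, adjusted p = 0.00269). Rpl18 and Rpl14 were at −0.78 ± 0.14 and −0.84 ± 0.15 (adjusted p = 0.00317 and 0.00356). The calls of the last 3 ended without TAF15-ZNF384 replicate 1 (−0.59, −0.70 and −0.78), and those of Rps10 and Rpl18 also without empty vector replicate 1 (−0.54 and −0.58).

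**Figure D3:**
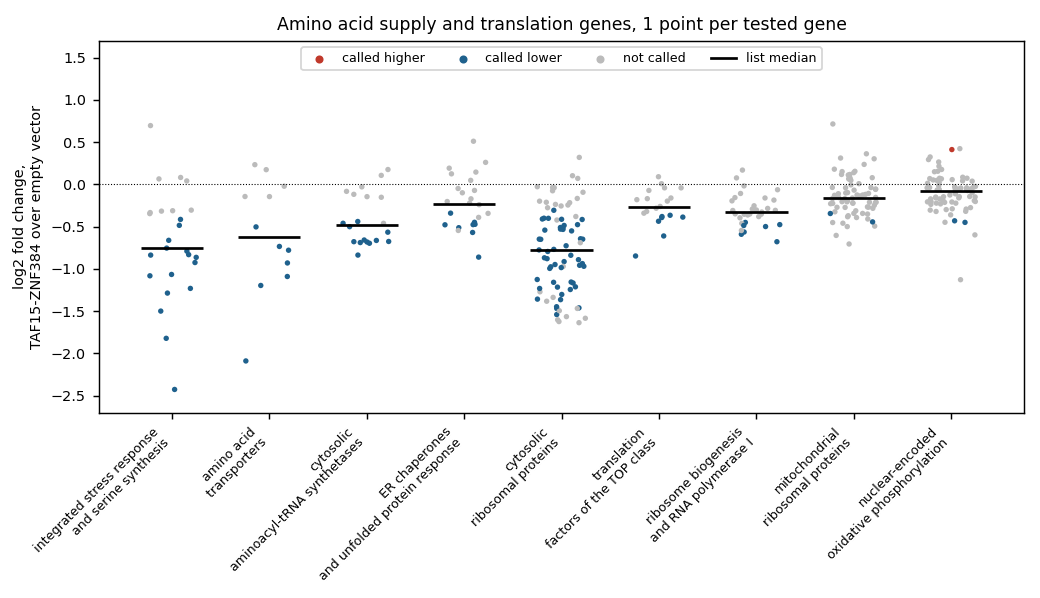
Log2 fold change of TAF15-ZNF384 over empty vector (vertical axis) for each tested member of 9 gene lists (horizontal axis), with genes called lower in blue, higher in red, not called in grey and the list median as a black bar. Medians of the stress response, transporter, synthetase and cytosolic ribosomal protein lists lie between −0.78 and −0.48, and those of the mitochondrial ribosomal protein and oxidative phosphorylation lists at −0.16 and −0.08.

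Across all tested genes 6.01% were lower. Genes of ribosome assembly were lower in 7 of 33 tested members and higher in 0, at a median of −0.33. Among them were Nop2, an rRNA methyltransferase (−0.50 ± 0.14, adjusted p = 0.0375), and Ncl, nucleolin (−0.59 ± 0.16, adjusted p = 0.0388). No more than 1 of the 7 calls was made with any 1 of the 4 libraries left out (0 without either TAF15-ZNF384 replicate, 1 without either empty vector replicate). Host genes of small nucleolar RNAs were lower in 6 of 11 members, and in 1 without either TAF15-ZNF384 replicate and 3 without either empty vector replicate. Snhg12 was at 60.3 and 58.2 CPM with TAF15-ZNF384, against 102 and 92.8 CPM with the empty vector (−0.71 ± 0.13, adjusted p = 0.00297), and its call ended without TAF15-ZNF384 replicate 2, at −0.70. Myc, which drives ribosome production in many cells, was at 60.5 and 59.0 CPM with the fusion, against 87.7 and 78.7 CPM with the vector (−0.48 ± 0.10, adjusted p = 0.00906). That call ended without TAF15-ZNF384 replicate 1 (−0.51) or 2 (−0.47) and without empty vector replicate 1 (−0.40).

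Of 24 endoplasmic reticulum chaperone and unfolded protein response genes 8 fell and 0 rose, and 1 to 3 fell with 1 of the 4 libraries left out (1 without TAF15-ZNF384 replicate 1 or empty vector replicate 2, 2 without empty vector replicate 1 and 3 without TAF15-ZNF384 replicate 2). Sdf2l1, a chaperone subunit, was at 47.1 and 50.9 CPM with TAF15-ZNF384, against 88.5 and 89.4 CPM with the empty vector (−0.86 ± 0.14, adjusted p = 0.00131). The central chaperone gene Hspa5 was at 83.4 and 76.5 CPM with the fusion and 58.0 and 88.6 CPM with the vector, so its groups overlapped (adjusted p = 0.751). Vegfa, a hypoxia-induced growth factor, was at 85.4 and 88.9 CPM with the fusion, against 139 and 162 CPM with the vector (−0.79 ± 0.13, adjusted p = 0.00129). The sterol pathway genes Nsdhl and Stard4 fell (−0.66 ± 0.11 and −0.56 ± 0.09, adjusted p = 0.00154 and 0.00185), among 4 lower and 0 higher of 24 tested. Beside the lists of this paragraph, 6.01% of all tested genes were lower and 5.01% higher. Hsp90ab1, a cytosolic heat shock protein, was the 1 call on an 18-gene list (−0.64 ± 0.11, adjusted p = 0.00213). That is near the share of lower genes among all tested genes. The call of Hsp90ab1 ended without TAF15-ZNF384 replicate 2, at −0.61.

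Cell cycle genes were called mainly among the cyclins and histones. Of all tested genes, 5.01% were higher and 6.01% lower. The calls on the mitotic list lay near those shares, as did the higher calls on the replication list. Ccnd2, the D-type cyclin of B cells, was at 1177 and 1071 CPM with TAF15-ZNF384, against 755 and 634 CPM with the empty vector (0.69 ± 0.10, adjusted p = 0.000666). With Cdkn1a, Cdkn2b and Rb1 it made 4 higher and 0 lower genes of 15 in the list of D-type cyclins and CDK inhibitors, of which 1 was called without TAF15-ZNF384 replicate 1 or empty vector replicate 1 and 2 without TAF15-ZNF384 replicate 2 or empty vector replicate 2. Cdkn2b, an inhibitor of CDK4 and CDK6, was at 9.24 and 8.99 CPM with the fusion, against 4.58 and 5.69 CPM with the vector (0.83 ± 0.21, adjusted p = 0.0242), a call that ended without TAF15-ZNF384 replicate 1 or 2 or empty vector replicate 1. DNA replication genes gave 3 higher and 0 lower of 39 and mitotic genes 1 higher and 2 lower of 31, and 0 of these 6 calls were made with any 1 of the 4 libraries left out. Replication-dependent histone genes were lower in 9 of 61 and higher in 0 (median −0.19), and in 1 or 2 with a library left out, while their median exonic length was 530 bases. Hist1h2ae was at 640 and 734 CPM with the fusion, against 1040 and 1196 CPM with the vector (−0.70 ± 0.11, adjusted p = 0.00133), and its call ended without TAF15-ZNF384 replicate 1, at −0.62. Total-count scaling gave 3 higher and 4 lower histone genes.

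Chromatin regulators gave 6 higher and 4 lower of 27 tested genes (median 0.19), where 5.01% of all tested genes were higher and 6.01% lower. Kdm5b, a demethylase of histone H3 lysine 4, was at 12.1 and 9.73 CPM with TAF15-ZNF384, against 4.14 and 3.75 CPM with the empty vector (1.46 ± 0.20, adjusted p = 0.000417). Kmt2a, a methyltransferase of the same residue whose gene is itself rearranged in leukaemia, was at 40.99 and 41.1 CPM with the fusion, against 26.0 and 27.9 CPM with the vector (0.61 ± 0.11, adjusted p = 0.00374), and its call ended without empty vector replicate 1, at 0.55. Without TAF15-ZNF384 replicate 1 or empty vector replicate 2, 3 genes were higher, and without TAF15-ZNF384 replicate 2 or empty vector replicate 1, 2 were higher, with 0 or 1 lower in these 4 fits. The median exonic length over the 25 members with a length was 6954 bases, and with the length trend removed 2 members were higher and 4 lower.

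**Figure D4:**
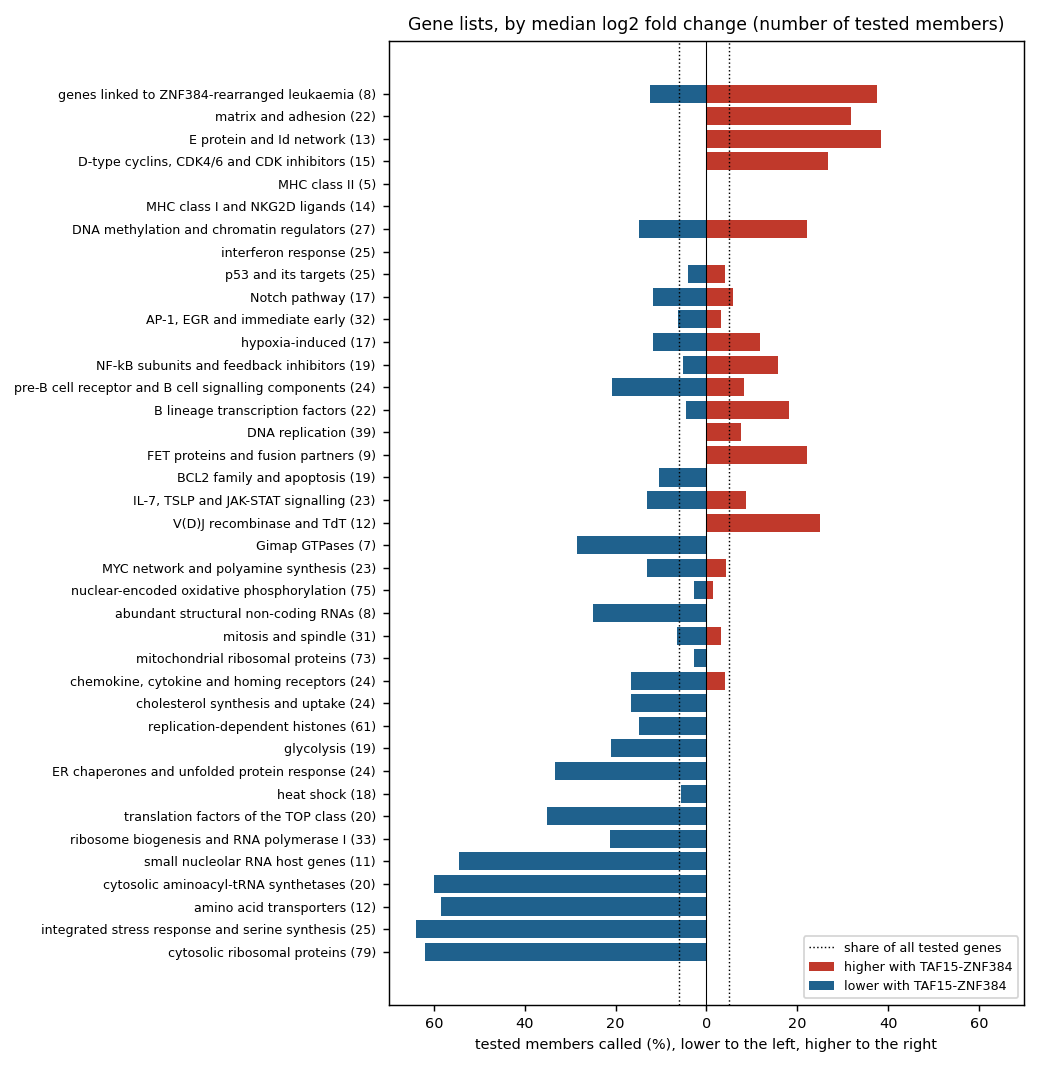
Percent of tested members called higher (red, to the right) or lower (blue, to the left) with TAF15-ZNF384 over empty vector for each of 39 gene lists, ordered by median log2 fold change, with the number of tested members in brackets. Dotted lines mark the share of all tested genes, 5.01% higher and 6.01% lower.

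Genes that mark other cells were few and low. Pre-B cell markers summed to 6663 and 6804 CPM with TAF15-ZNF384 and 6810 and 6390 CPM with the empty vector over 14 genes. Myeloid markers summed to 0.979 and 0.423 CPM with the fusion and 0.743 and 0.444 CPM with the vector over 12 genes, with Fcgr3, S100a8 and S100a9 at 0 in all 4 libraries. T and NK cell markers summed to 1.85 and 1.69 CPM against 0.743 and 0.806 CPM, with Cd8a at 0. Erythroid and megakaryocyte markers summed to 6.74 and 5.39 CPM with the fusion and 4.03 and 4.76 CPM with the vector, and stromal markers to 1.20 and 1.16 CPM against 1.06 and 1.45 CPM. Mature B and plasma cell markers summed to 46.8 and 48.2 CPM with the fusion and 45.3 and 54.1 CPM with the vector. Single members moved apart, from −1.28 to 1.15 over 6 tested, at a median of −0.38. Of these, 1 was called lower (Jchain) and 0 higher, where 6.01% of all tested genes were lower. Among stem and progenitor markers, which summed to 4.46 and 4.65 CPM with the fusion and 2.39 and 2.94 CPM with the vector, Hoxa9 and Gata2 were at 0 in all 4 libraries, and the receptor kinase gene Flt3 was the only one tested. Flt3 was at 4.35 and 4.65 CPM with TAF15-ZNF384, against 2.23 and 2.86 CPM with the empty vector (0.82 ± 0.22, adjusted p = 0.0297), and its call ended without TAF15-ZNF384 replicate 1 (0.86) or 2 (0.76) and without empty vector replicate 1 (0.65). In bulk RNA, fewer cells with a gene on and less RNA per cell cannot be told apart.

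Set beside TCF3-ZNF384 over full-length ZNF384, a comparison that shares no library with the one described here and calls 45.6% of tested genes, most large changes had a counterpart in the same direction. Of the 190 genes at least 2-fold higher with TAF15-ZNF384, 156 (82.1%) were also higher with TCF3-ZNF384 and 2 lower, where 22.2% of all tested genes were higher. Those 156 made up 5.41% of the genes higher with TCF3-ZNF384. Of the 143 genes at least 2-fold lower, 100 (69.9%) were also lower with TCF3-ZNF384 and 7 higher, where 23.4% of all tested genes were lower. They made up 3.3% of that list. All 8 libraries entered 1 fit, so the 2 comparisons share an estimate of the spread, though not the values.

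The fusions were then compared directly, which shares the TAF15-ZNF384 libraries and called 10.1% of tested genes, 4.17% higher and 5.91% lower with TAF15-ZNF384. Of the 190 genes at least 2-fold higher over the vector, 66 were lower and 6 higher with TAF15-ZNF384 than with TCF3-ZNF384. Several genes that TAF15-ZNF384 raised were higher still with TCF3-ZNF384. Rag1 was at 67.6 and 55.1 CPM with TCF3-ZNF384, and TAF15-ZNF384 was lower (log2 fold change over TCF3-ZNF384 −2.94 ± 0.19, adjusted p = 6.45e-07). Itgb3 was at 132 and 128 CPM with TCF3-ZNF384 (TAF15-ZNF384 over TCF3-ZNF384 −2.44 ± 0.12, adjusted p = 9.82e-08). Samd9l was at 423 and 438 CPM with TCF3-ZNF384 (−1.97 ± 0.11, adjusted p = 1.7e-07). The count of Zfp384 differed as well, at 511 and 450 CPM with TCF3-ZNF384 (−1.47 ± 0.24, adjusted p = 0.00772). That count does not measure the transcript of the construct alone, and the part of its difference in the other genes was not tested. Elavl3, which encodes a neuronal RNA-binding protein, was at 3.91 and 2.54 CPM with TAF15-ZNF384 but at 56.1 and 58.8 CPM with TCF3-ZNF384 (−4.16 ± 0.22, adjusted p = 1.21e-07). Over the empty vector, at 1.56 and 0.766 CPM, Elavl3 was higher with TAF15-ZNF384 (1.46 ± 0.32, adjusted p = 0.00949), a call that ended without TAF15-ZNF384 replicate 1 (1.10) or empty vector replicate 2 (1.03), and its value was 2.06 without empty vector replicate 1. Not every riser followed that order: Adgrf1 was at 10.4 and 7.97 CPM with TCF3-ZNF384, and the direct difference was 0.07 ± 0.24 (adjusted p = 0.895). Rag2 was at 1.10 and 1.13 CPM with TCF3-ZNF384, and TAF15-ZNF384 did not differ from it by the test (0.57 ± 0.58, adjusted p = 0.611), an interval too wide to call the levels alike.

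Among the 143 genes at least 2-fold lower over the vector, 22 were higher with TAF15-ZNF384 than with TCF3-ZNF384 and 16 were lower. Gprin3 was at 4.97 and 5.12 CPM with TCF3-ZNF384, below its level with TAF15-ZNF384 (TAF15-ZNF384 over TCF3-ZNF384 0.82 ± 0.16, adjusted p = 0.00517), and Tnfsf11 at 5.98 and 8.13 CPM (1.09 ± 0.23, adjusted p = 0.0109). Blk was at 105 and 122 CPM with TCF3-ZNF384 (0.73 ± 0.11, adjusted p = 0.000554). Nov, a secreted matricellular protein now also called Ccn3, was one of the 16. It was at 6.63 and 7.62 CPM with TAF15-ZNF384, against 33.5 and 27.6 CPM with TCF3-ZNF384 (−2.09 ± 0.19, adjusted p = 1.08e-05), 27.2 and 38.0 CPM with full-length ZNF384 (−2.18 ± 0.19, adjusted p = 2.99e-06) and 18.3 and 19.8 CPM with the empty vector (−1.42 ± 0.19, adjusted p = 0.00038). The 2 TAF15-ZNF384 libraries were the lowest of all 8 for Nov, and its fall against the vector kept its call under every alternative run. Btk was at 23.7 and 24.8 CPM with full-length ZNF384, and TAF15-ZNF384 did not differ from it by the test (−0.07 ± 0.12, adjusted p = 0.689), although both lay below the vector's 50.01 and 43.4 CPM.

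**Figure D5:**
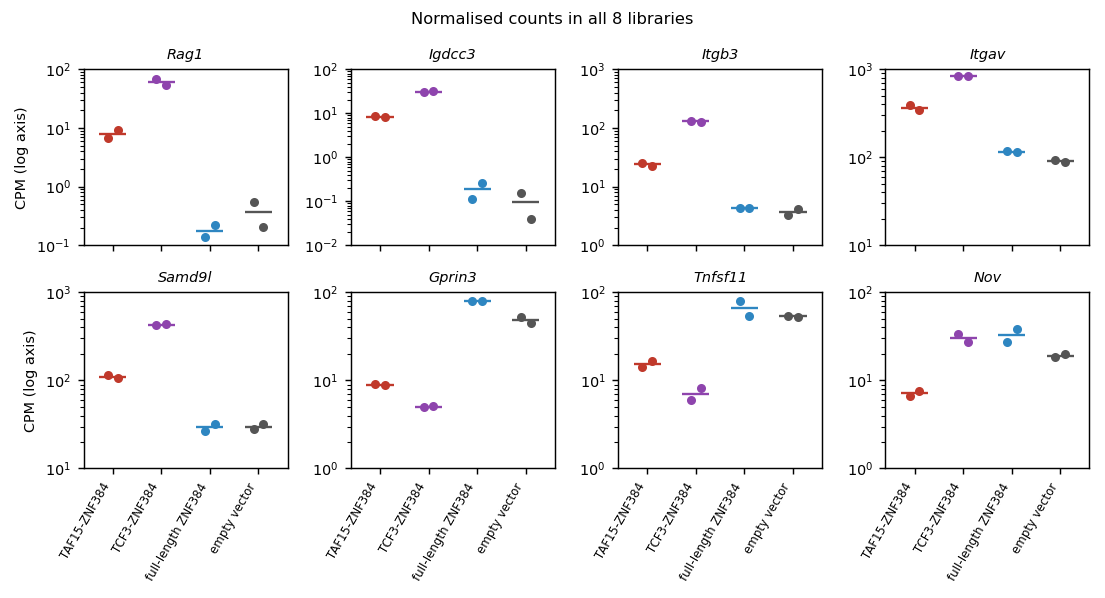
Normalised counts (CPM, log axes) of 8 genes in all 8 libraries, with both libraries of a group as points and their mean as a bar, in the order TAF15-ZNF384, TCF3-ZNF384, full-length ZNF384 and empty vector. Rag1, Igdcc3, Itgb3, Itgav and Samd9l are intermediate with TAF15-ZNF384 and highest with TCF3-ZNF384, while Nov is lowest with TAF15-ZNF384.

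ZNF384 is known to bind runs of A. In the RefSeq windows (GRCm38.p6) a run of at least 6 A, on either strand, was found in 17.8% of windows of genes higher with TAF15-ZNF384, in 14.8% of windows of lower genes and in 14.2% of windows of tested genes. Over all 32851 windows in the table the share was 19.2%, above that of the higher genes. Among genes at least 2-fold higher the share was 21.7%, and among those at least 2-fold lower it was 18.6%. Runs of at least 8 A were in 8.53%, 6.49% and 6.2% of windows of higher, lower and tested genes. The shares differed by a few percentage points, and no test was made. The runs upstream of 5 genes that rose are given, because the fusions keep the zinc fingers, with the run in capitals and each read on the strand that holds the A.

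Samd9l (chr6:3399645-3399684, minus strand): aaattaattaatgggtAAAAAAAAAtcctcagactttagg
Mmp13 (chr9:7272395-7272434, plus strand): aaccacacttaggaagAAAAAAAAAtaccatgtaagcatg
Il2ra (chr2:11642728-11642767, plus strand): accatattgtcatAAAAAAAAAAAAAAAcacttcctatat
Dntt (chr19:41029093-41029132, minus strand): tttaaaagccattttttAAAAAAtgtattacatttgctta
Rag2 (chr2:101624467-101624506, minus strand): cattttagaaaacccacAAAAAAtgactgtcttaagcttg

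These runs began at −97 in Samd9l, −103 in Mmp13, −51 in Il2ra, −165 in Dntt and −228 in Rag2. Nothing in these data shows whether the fusion was bound there.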

How the data were processed

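Whole-number read counts per gene for 8 libraries were deposited by the authors. Per the submitters' processing notes, HTSeq 0.6.1p1 and the mm9 build were used. The aligner, the annotation release and the strand setting are not given in the sources used here. Of 32499 genes, 10419 had no count and 12970 passed edgeR's filter on low counts.

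All 8 libraries entered 1 fit with TMM scaling and edgeR's 2-sided quasi-likelihood test (edgeR 4.0.16, R 4.3.3), with 4 residual degrees of freedom and Benjamini-Hochberg adjustment over all tested genes at 0.05. Log2 fold changes are from that fit, and CPM uses TMM-scaled totals. DESeq2 1.42.0 and limma-voom (limma 3.58.1) were alternatives. The p-values measure the spread between these samples, which may be technical. On counts simulated for TAF15-ZNF384 versus empty vector (12970 genes, 200 changed), 70% of 2-fold and 90% of 4-fold changes were recovered, with 24 false calls. The false calls were a larger share of the calls than the threshold of 0.05 aims for.

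The genes and lists were chosen with earlier results of these data known. Named genes were the controls, the 12 with the largest change and the 8 with the smallest adjusted p in each direction among called genes with separate groups and at least 5 CPM, up to 4 called members per direction and 2 members not called from each of 39 lists, and 6 per direction that differed most from TCF3-ZNF384. Outside that rule, and after their values were seen, these were also named: Gja1, Cd38, Prkdc, Lig4, Lamb2, Timp2, Vpreb1, Prkcb, Cth, Phgdh, Chac1, Nupr1, Atf4, Ddit3, Atf3, Hspa5, Ncl, Rps6, Rps15a, Rps10, Rpl18 and Rpl14.

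Promoter windows came from RefSeq (GRCm38.p6) and covered 9449 tested genes (72.9%). Exonic lengths were found for 88.7% of tested genes. Gene positions are in mm9. Total-count scaling, removal of the length trend, the fit of only the compared groups with a replicate block, leaving out libraries of the other groups and the TGATGNAA search were added after seeing the data. Replicate numbers were not shown to pair the samples. A few single-gene values are not reported here.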

Additional observations from a re-analysis of the deposited data

How the results depend on the processing

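Under the 10 planned and 4 added alternatives, no called gene changed sign, and 294 of the 1430 lost their call under none. Each gene was judged only in the fits that tested it. Fitting only the groups compared gave 2746 calls (1141 higher and 1605 lower), and 2807 (1155 and 1652) with a replicate block in that fit. A replicate block in the fit of all libraries gave 1825 calls (796 higher and 1029 lower), with correlations of same-numbered deviations from 0.014 to 0.22. Without a filter on low counts 1220 genes were lower, and total-count scaling gave 1341 higher and 424 lower. With any 1 of the 8 libraries left out, calls ranged from 404 to 2783, higher genes from 206 to 1176 and lower genes from 198 to 1619. The top of each range came from leaving out a full-length ZNF384 library, and no fit without a TAF15-ZNF384 or empty vector library exceeded 686 calls. With 1 library of the compared groups left out, calls ranged from 2158 to 5333 against full-length ZNF384, 371 to 646 against TCF3-ZNF384, and 3866 to 6558 for TCF3-ZNF384 against full-length ZNF384. The share of promoters with a run of A was 8.53% for higher and 6.49% for lower genes with runs of 8, and 21.7% and 18.6% among genes changed at least 2-fold. The cause of these shifts was not tested. The shallower fusion libraries limit genes under a few counts, where fold changes rest on single reads.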

Other observations

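Several further gene groups held calls with TAF15-ZNF384 over the empty vector. In that comparison 5.01% of all tested genes rose and 6.01% fell. Of 19 tested glycolysis genes 4 fell and 0 rose: Pfkp (−0.59), Pgk1 (−0.56), Hk2 (−0.49) and Gpi1 (−0.43). These calls numbered 0 without either TAF15-ZNF384 replicate, 1 without replicate 1 of the empty vector and 2 without its replicate 2. Of 19 NF-κB subunits and feedback inhibitors, Nfkb2 (0.50), Nfkbie (0.48) and Birc3 (0.37) rose and Rel fell, and the 3 risers shrank to 0 without TAF15-ZNF384 replicate 1 or empty vector replicate 1 and to 1 without TAF15-ZNF384 replicate 2 or empty vector replicate 2. The Notch list gave 1 higher gene (Hes1) and 2 lower (Notch2, −0.42, and Adam10, −0.40) of 17, of which Hes1 was called with each of the 4 libraries left out and the lower genes were not. Hypoxia-induced genes split into 2 higher (Egln3, 0.93, and Bnip3, 0.57) and 2 lower (Vegfa and Egln1, −0.50) of 17. Without TAF15-ZNF384 replicate 1 or 2 these were 0 higher and 1 lower, without empty vector replicate 1 they were 1 and 1, and without its replicate 2 they were 1 and 2.

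Calls among antigen presentation genes depended on the setting. In the main fit 5.01% of all tested genes were higher and 6.01% lower. Of 14 tested MHC class I and NKG2D ligand genes edgeR called 0, gave 6 higher and 0 lower at an unadjusted p under 0.05, and DESeq2's Wald test called 1 higher. The number higher was 1 with DESeq2 size factors, 4 with a replicate block, 5 of 14 with total-count scaling, 5 of the 11 tested when only the groups compared were fitted, and 1 without empty vector replicate 2. Of 5 tested MHC class II genes edgeR and DESeq2 called 0, with 0 at an unadjusted p under 0.05, and the fit of only the groups compared called 1 of 3 higher. Of 32 immediate early genes 1 rose (Spry2, 0.54) and 2 fell (Dusp5, −0.77, and Btg1, −0.43). Without TAF15-ZNF384 replicate 1 or 2 these were 0 higher and 1 lower, and without empty vector replicate 1 or 2 they were 1 or 2 higher and 1 lower. Of 8 tested genes linked to ZNF384-rearranged leukaemia, 3 rose (Clcf1, Il2ra and Flt3) and 1 fell (Cd69), and without TAF15-ZNF384 replicate 1 this became 1 and 0.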
